A study of Mus musculus with 33 samples.

Results

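The effect of 1 added copy of Runx1 on RNA in mouse endothelial cells was compared between E13.5 and E9.5, gene by gene. The quantity compared was the difference of 2 effects: 1Runx1 minus Ctrl at E13.5, less 1Runx1 minus Ctrl at E9.5, on the log2(RPKM + 1) scale. RPKM is the read number scaled to gene length and to library size, and adding 1 before the logarithm understates the change of genes with low levels. Of 25239 genes in the table, 12546 reached an RPKM of 1 in 2 or more of the 13 RNA libraries, and all of these were tested. A positive difference means a more positive effect at E13.5, and a negative one a more positive effect at E9.5.

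Endothelial cells were sorted from whole embryos at E9.5 and whole fetuses at E13.5 by excluding the blood cell markers CD41, CD45 and Ter119 and keeping cells with CD31, VE-cadherin and at least a low level of cKIT. The comparison rested on 7 RNA-seq libraries: 2 of E9.5 Ctrl, 2 of E9.5 1Runx1, 1 of E13.5 Ctrl and 2 of E13.5 1Runx1. All 4 groups carried the knock-in allele CKI, and females received 2 mg tamoxifen 24 hours before harvest in each. The genotype was CKI/+ in E9.5 Ctrl, Cre with CKI/+ in 1Runx1 at both stages, and CKI/CKI or CKI/+ in E13.5 Ctrl. The labels name no Cre in Ctrl, so Cre and the added copy cannot be told apart. Neither do they name the promoter that drives Cre. The background was C57BL/6J-129Sv/J at E13.5 and C57BL/6J-129Sv/J x B6C3F1 at E9.5, and the E9.5 embryos came from superovulated females. Stage therefore cannot be told apart from background and superovulation. E13.5 2Runx1 (Cre with CKI/CKI, 2 libraries) entered no contrast, because it shares the Ctrl library with E13.5 1Runx1. Its values are given beside some of the members. Its libraries and those of liver endothelium did enter the fit of 13 RNA libraries, so they add to the estimate of the spread. They also count in the filter on low values. Whether replicates are different animals is not given in the labels, so p-values measure the spread between these libraries, which may be technical.

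RUNX1 is the DNA-binding partner of CBFβ and is required in hemogenic endothelium for the transition of endothelial cells into blood cells. In the mouse embryo that transition takes place around midgestation, mainly in the yolk sac and the large arteries. At later stages most endothelium no longer makes blood, and it takes on properties of the organ it lies in. RUNX proteins bind the core sequence TGTGGT, read as ACCACA on the other strand.

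The sequences shown are promoter windows of 3 genes, picked because these genes rose strongly with Runx1 and each window held the RUNX core. AI467606 and Ltc4s rose at both stages, and Lgals9 rose at both but more at E9.5. The windows run from 250 bases before to 50 bases after a start site, on GRCm38.p6 from RefSeq, and capitals mark TGTGGT or its reverse complement.
AI467606 (chr7:127091186-127091485, plus strand): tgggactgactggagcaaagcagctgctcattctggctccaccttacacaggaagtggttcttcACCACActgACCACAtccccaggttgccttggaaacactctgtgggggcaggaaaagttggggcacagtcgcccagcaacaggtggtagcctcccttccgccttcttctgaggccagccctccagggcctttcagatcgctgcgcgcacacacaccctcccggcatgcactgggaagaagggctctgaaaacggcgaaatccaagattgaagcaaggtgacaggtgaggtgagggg
Ltc4s (chr11:50238483-50238782, minus strand): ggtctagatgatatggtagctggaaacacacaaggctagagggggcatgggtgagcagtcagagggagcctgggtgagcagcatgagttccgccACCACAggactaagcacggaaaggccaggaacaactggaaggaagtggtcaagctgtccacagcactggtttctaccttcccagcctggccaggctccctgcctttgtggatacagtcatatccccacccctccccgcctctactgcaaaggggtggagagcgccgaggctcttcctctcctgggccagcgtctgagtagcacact
Lgals9 (chr11:78984875-78985174, minus strand): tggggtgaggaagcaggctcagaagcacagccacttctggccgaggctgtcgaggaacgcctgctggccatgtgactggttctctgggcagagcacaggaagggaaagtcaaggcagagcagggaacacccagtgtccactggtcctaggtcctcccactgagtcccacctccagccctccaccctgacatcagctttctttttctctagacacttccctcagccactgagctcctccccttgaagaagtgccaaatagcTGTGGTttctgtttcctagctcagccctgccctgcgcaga
In AI467606 the core began at bases -186 and -177 from the start site, in Ltc4s at -156 and in Lgals9 at +11, with the start site as +1. The core was found in 16.8% of all 32851 promoter windows of this length, so a match is a description and not a binding site. No core was found in the windows of Cdkn1a, Stat4, Eda2r, Lrrc55, Art4, Def6 or Npnt, which were also higher at both stages. A core was found in a window of Dcxr, likewise higher at both stages, but also in genes that fell. These were Armcx1, lower at both stages, and Rbp4 and S100a9, lower at E13.5.

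The libraries held between 38918863 and 44540403 reads in genes, as recovered from the RPKM values. All 26 endothelial identity genes searched were in the table, and their summed RPKM was 4087 to 4346 at E9.5 and 4852 to 5267 in E13.5 Ctrl and 1Runx1, so the sorted cells carried endothelial RNA in every library. Markers of hepatocytes, macrophages, neutrophils and erythroid cells had higher sums in E13.5 Ctrl than at E9.5, and their values stand beside the results they move with. In E9.5 and E13.5 Ctrl and 1Runx1 libraries, megakaryocyte and platelet markers summed to 142 to 144 at E9.5 and 72.7 to 92.5 at E13.5, and neural markers to 145 to 157 and 114 to 129. Pan-leukocyte markers summed to 215 to 259 and 261 to 303, and mesenchymal markers to 97.3 to 110 and 135 to 183.

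Runx1 itself (chromosome 16, 92601466 to 92826074 on GRCm38.p6) was at 0.915 and 0.904 RPKM in E9.5 Ctrl and at 14.9 and 16.2 in E9.5 1Runx1. At E13.5 it was at 1.37 in Ctrl, at 28.9 and 23.7 in 1Runx1, and at 22.7 and 25.2 in 2Runx1. No 1Runx1 library came near a Ctrl library at either stage. The log2 difference was 3.12 ± 0.10 (SE) at E9.5 and 3.52 ± 0.12 at E13.5, with limma adjusted p of 1.16e-07 and 1.76e-07. These gains differed by 0.40, with a 95% interval of 0.05 to 0.76 and an adjusted p of 0.203, so the rise of Runx1 did not pass the test of a stage difference. Reads of the knock-in and of the endogenous gene are not separated in the table.

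At E9.5, 108 genes were higher and 41 lower with 1 added copy (0.861% and 0.327% of the genes tested), at an adjusted p under 0.05 from limma with Benjamini-Hochberg adjustment over all genes tested. At E13.5, 795 were higher and 505 lower (6.34% and 4.03%), so 61.2% of the calls were higher, against 49.3% after quantile normalization. The effect differed between the stages for 284 genes, 146 with a positive difference (1.16%) and 138 with a negative one (1.1%). The share with a positive difference was thus 51.4%, against 37.7% without the filter on low values. The median gene had a 95% interval of the difference, without adjustment over genes, that reached 0.31 to each side. Calls also had to pass the adjustment, so smaller differences, and some larger ones, were not detectable in most genes. Leaving out E9.5 Ctrl replicate 1 or 2 took the 284 to 50 and 39, leaving out E9.5 1Runx1 replicate 1 or 2 to 167 and 47, and leaving out E13.5 1Runx1 replicate 2 to 452. Without E9.5 Ctrl replicate 1 or 2 the 149 calls at E9.5 became 46 and 41 and the 1300 at E13.5 became 821 each time, and without E9.5 1Runx1 replicate 1 or 2 the 149 became 89 and 52. The single E13.5 Ctrl library could not be left out, and its spread was taken to equal that of the remaining groups.

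**Figure D1:**
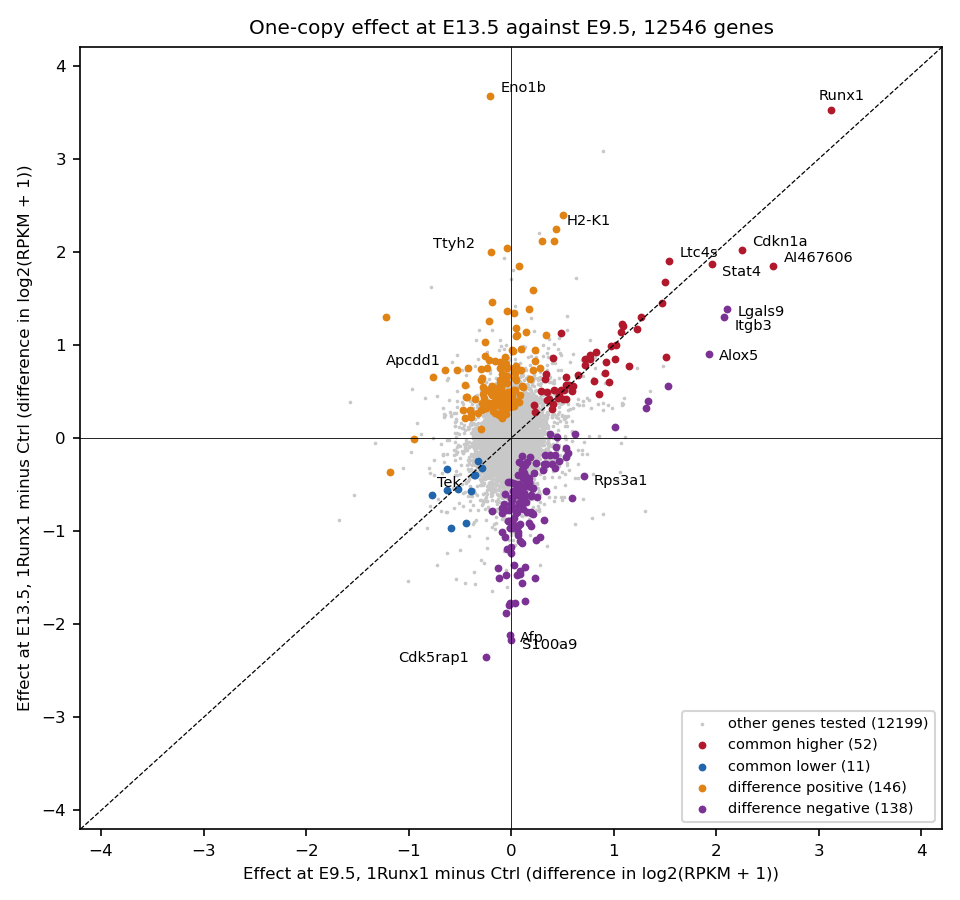
Effect of 1 added Runx1 copy on each of 12546 genes at E9.5 (horizontal axis) and at E13.5 (vertical axis), each as 1Runx1 minus Ctrl in log2(RPKM + 1), with the dashed line marking equal effects. The 52 genes higher at both stages lie near the line, whereas most of the 284 genes with a different effect lie near 0 on the horizontal axis.

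A core of responses was common to both stages. Of the 108 genes higher at E9.5, 95 (88%) had a positive effect at E13.5 and 56 (51.9%) were also called higher there. Of the 41 genes lower at E9.5, 29 (70.7%) had a negative effect at E13.5 and 11 (26.8%) were called lower. Seen from E13.5 the overlap was a small share: 56 of the 795 higher genes (7.04%) and 11 of the 505 lower genes (2.18%) were called in the same direction at E9.5. In sign alone, 535 of the 795 (67.3%) had a positive effect at E9.5 and 260 of the 505 (51.5%) a negative one. The median effect over all genes tested was 0.01 at E9.5 and 0.02 at E13.5. Across all genes tested, Pearson's r between the 2 effects was 0.21 and Spearman's rho 0.12, as a description over genes, which are not independent. The E9.5 and E13.5 effects share no library.

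Genes were counted as common where both stages were called in the same direction and the difference of effects was not called. This gave 52 common higher genes (0.414% of the genes tested) with median effects of 0.72 at E9.5 and 0.69 at E13.5, and 11 common lower genes (0.0877%) with medians of -0.44 and -0.55. A difference of effects that misses the threshold does not show equal effects, so the interval of the difference was read. It lay within -1 to 1 for 50 of the 52 and all 11 of the lower genes, and within -0.5 to 0.5 for 32 and 7. The interval, which is not adjusted over genes, excluded 0 for 9 of the 52 and 3 of the 11. Including Runx1, 12 of the 52 rose at least 2-fold on this scale at both stages. The 52 became 23 without E9.5 Ctrl replicate 1 or replicate 2 and 26 without E9.5 1Runx1 replicate 2. The 11 became 1 without E9.5 Ctrl replicate 1, 0 without replicate 2 (limma, with 73 genes lower at both stages at an unadjusted p under 0.05), 5 without E9.5 1Runx1 replicate 1 and 1 without replicate 2.

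By the smaller of the 2 effects, Cdkn1a and Stat4 came next after Runx1 among the common genes. Cdkn1a encodes p21, which blocks cyclin-dependent kinases (chromosome 17, 29090979 to 29100722). It was at 8.48 and 7.59 RPKM in E9.5 Ctrl and 36.9 and 47.3 in E9.5 1Runx1, and at 8.05 in E13.5 Ctrl and 31.8 and 39.9 in E13.5 1Runx1. Its effects were 2.25 ± 0.12 and 2.02 ± 0.15, with adjusted p of 5.43e-06 and 5.47e-05, and their difference was -0.23 (95% interval -0.65 to 0.19). Stat4, a transcription factor of cytokine signalling in lymphoid cells (chromosome 1, 51987106 to 52107189), was at 0.442 and 0.26 against 4.11 and 4.33 at E9.5, and at 0.311 against 4.06 and 3.55 at E13.5. Its effects were 1.95 ± 0.09 and 1.87 ± 0.12. For both genes every 1Runx1 library was above every Ctrl library of either stage.

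Ltc4s, the synthase that makes leukotriene C4, was at 1.15 and 0.759 RPKM in E9.5 Ctrl against 4.64 and 4.69, and at 0.433 in E13.5 Ctrl against 4.21 and 4.53. Its effects were 1.54 ± 0.14 and 1.91 ± 0.18. AI467606 rose from 0.293 and 0.344 to 6.63 and 6.88 RPKM at E9.5 and from 4.59 to 16.9 and 21.6 at E13.5. It began from different levels, and its effects of 2.56 ± 0.13 and 1.85 ± 0.16 differed by -0.71, with an interval of -1.16 to -0.25 and an adjusted p of 0.0974. Dok2, an adaptor protein of hematopoietic cells, also started higher at E13.5, at 1.75 against 0.499 and 0.345 in the E9.5 Ctrl libraries, and rose by 1.08 ± 0.14 at E9.5 and 1.22 ± 0.18 at E13.5. Lcp2, the adaptor SLP-76 of T cell and platelet signalling, rose by 0.83 ± 0.10 and 0.93 ± 0.12. Dok2 and Lcp2 were the common genes among 16 pan-leukocyte genes tested. At E13.5, 4 of the 16 were higher and 2 lower, against 6.34% and 4.03% of all genes tested. Cd53, a tetraspanin of leukocytes in that list, fell by 0.70 ± 0.12 at E13.5 and had a called difference of -0.78.

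The other common higher genes named by size were Eda2r, Lrrc55, Art4, Dcxr, Def6, Npnt and Gem. Their effects at E9.5 ran from 1.50 ± 0.19 for Eda2r, a receptor of the TNF receptor family, down to 1.03 ± 0.09 for Gem, a small GTPase. At E13.5 they ran from 1.68 ± 0.23 to 1.00 ± 0.11 for the same 2 genes. Lrrc55, an auxiliary subunit of BK potassium channels, was at 0.741 and 0.828 against 3.91 and 3.99 RPKM at E9.5 and at 1.24 against 4.51 and 5.74 at E13.5. Its effects differed by only -0.03, with an interval of -0.50 to 0.44. Npnt, the matrix ligand nephronectin, was at 2.68 and 2.92 against 6.82 and 7.12 at E9.5 and at 8.86 against 18.6 and 23.1 at E13.5. Runx1, Cdkn1a, Stat4, AI467606, Ltc4s, Lrrc55, Dcxr, Def6, Npnt, Gem, Lcp2, Nfkbia and Trf were called higher at both stages under all 12 alternatives tried, whereas Art4 lost a call under 6. The difference of effects was also called for Runx1 in 1 of the 12 and for AI467606 in 3.

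**Figure D2:**
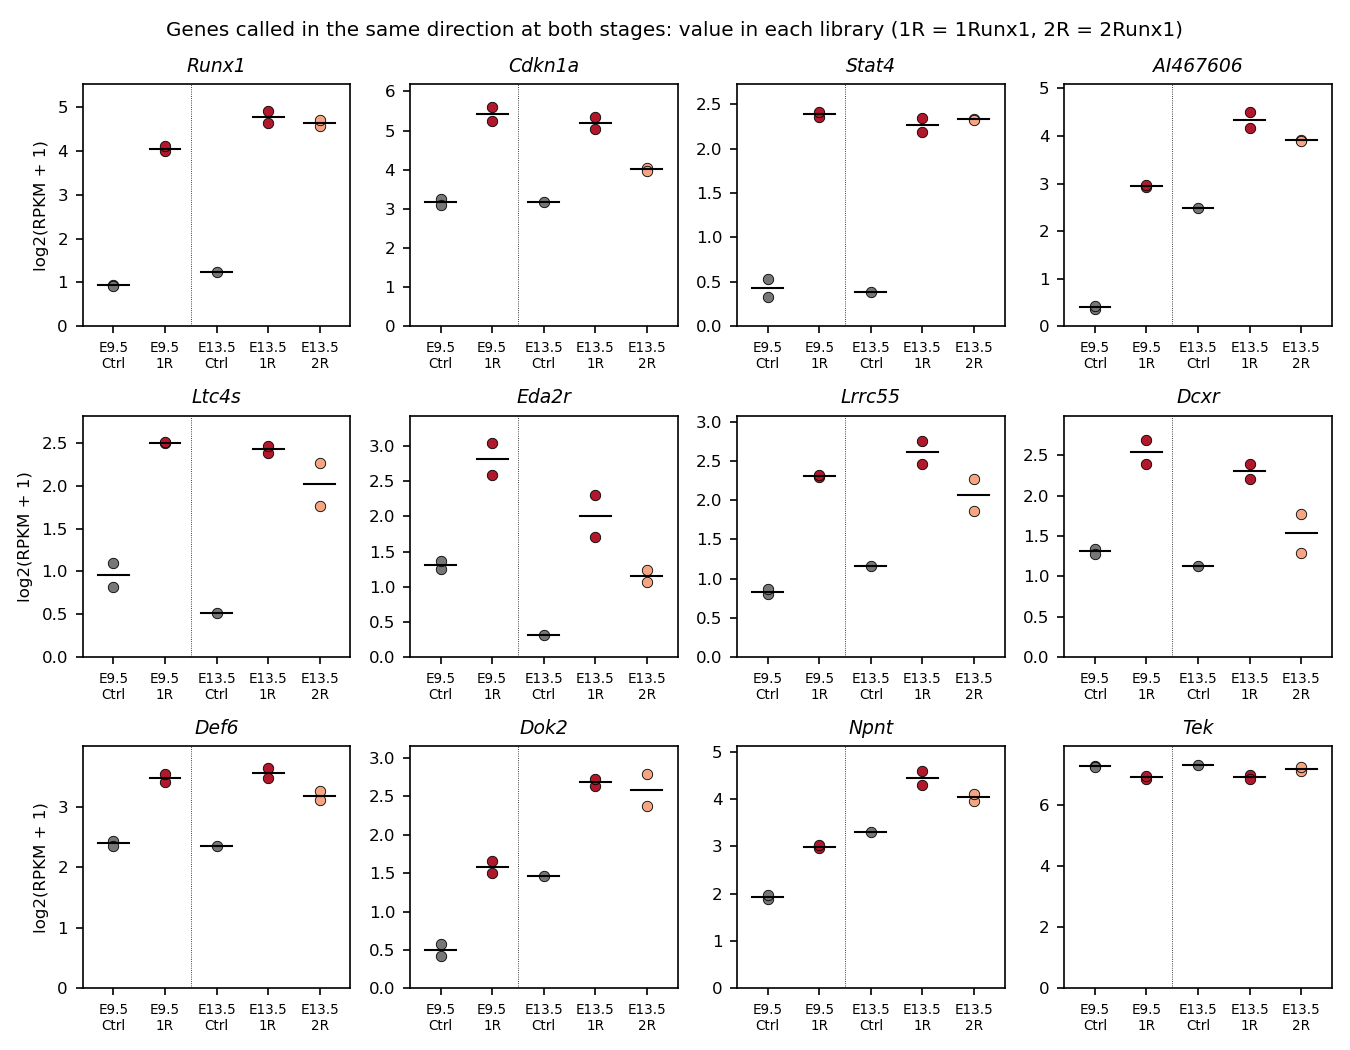
Values of 12 genes called in the same direction at both stages, one point per library, in log2(RPKM + 1), with short lines at group means and E13.5 2Runx1 shown beside them. In the first 11 panels each 1Runx1 library lies above each Ctrl library of its stage, and in Tek each lies below.

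Among the common lower genes, Tek is the endothelial receptor TIE2 (chromosome 4, 94739086 to 94874976). It was at 154 and 152 RPKM in E9.5 Ctrl and 116 and 122 in 1Runx1, and at 157 in E13.5 Ctrl and 124 and 115 in 1Runx1. In E13.5 2Runx1 it was at 137 and 150. Its effects were small and nearly equal, -0.36 ± 0.06 and -0.39 ± 0.08, and a call at one stage was lost under 7 of the 12 alternatives. Akap12, a scaffold protein for protein kinase A, fell by 0.52 ± 0.07 and by 0.55 ± 0.09. Bcat1, the cytosolic branched-chain aminotransferase, fell from 6.91 and 6.39 to 4.81 and 4.46 RPKM at E9.5 and from 1.61 to 0.338 and 0.432 at E13.5. The remaining lower genes named by size were Adat2, Mid1, Gbp9, Lbp and Armcx1, with effects between -0.77 and -0.36 at E9.5 and between -0.97 and -0.40 at E13.5. None of the 11 lower genes was common under every alternative.

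The list of p53 target genes was the one in which most members responded at E9.5. All 22 were tested, 13 were higher at E9.5 and 8 at E13.5, none was lower at either stage, and 7 were common: Cdkn1a, Eda2r, Phlda3, Sesn2, Zmat3, Ei24 and Bax. The shares of all genes tested that were higher were 0.861% at E9.5 and 6.34% at E13.5. The median effect over the list was 0.47 at E9.5 and 0.33 at E13.5, where that over all genes tested was 0.01 and 0.02. The list was chosen with earlier results of these libraries known, so these counts are a description. Over the 12 alternatives the number higher ran from 2 to 13 at E9.5 and from 4 to 11 at E13.5. Phlda3, an inhibitor of AKT, was at 15.3 and 16.9 against 30.1 and 35.3 RPKM at E9.5, and at 14.9 against 26.3 and 35.7 at E13.5, with effects of 0.98 ± 0.12 and 0.99 ± 0.15. Sesn2, a stress-induced regulator of mTORC1, rose by 1.01 ± 0.16 and 0.85 ± 0.20. Sesn2 lost a call in 6 of 12 alternatives and Phlda3 in 3. The E13.5 2Runx1 libraries lay between Ctrl and 1Runx1 for these genes, at 15.6 and 14.6 RPKM for Cdkn1a, 18.7 in each for Phlda3, and 6.56 and 8.17 for Sesn2, which was at 5.43 in Ctrl and at 8.98 and 12.4 in 1Runx1.

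The difference of effects was called for 1 gene of this list. Trp53inp1, a nuclear protein that promotes p53 activity (chromosome 4, 11156441 to 11174379), was at 2.97 and 2.93 RPKM in E9.5 Ctrl and 8.14 and 9.63 in E9.5 1Runx1. At E13.5 the Ctrl library stood at 6.83 and the 1Runx1 libraries at 7.61 and 10.2. The effect was 1.32 ± 0.12 at E9.5 and 0.33 ± 0.14 at E13.5, a difference of -0.99 (interval -1.40 to -0.59, adjusted p 0.0279) that lost its call in 6 of 12 alternatives. Mdm2, the ubiquitin ligase of p53, went from 23.1 and 24.6 to 32.9 and 40.5 RPKM at E9.5 and from 21 to 20.7 and 23.3 at E13.5. Its difference of -0.53 (interval -0.85 to -0.21) did not pass, with an adjusted p of 0.0866.

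**Figure D3:**
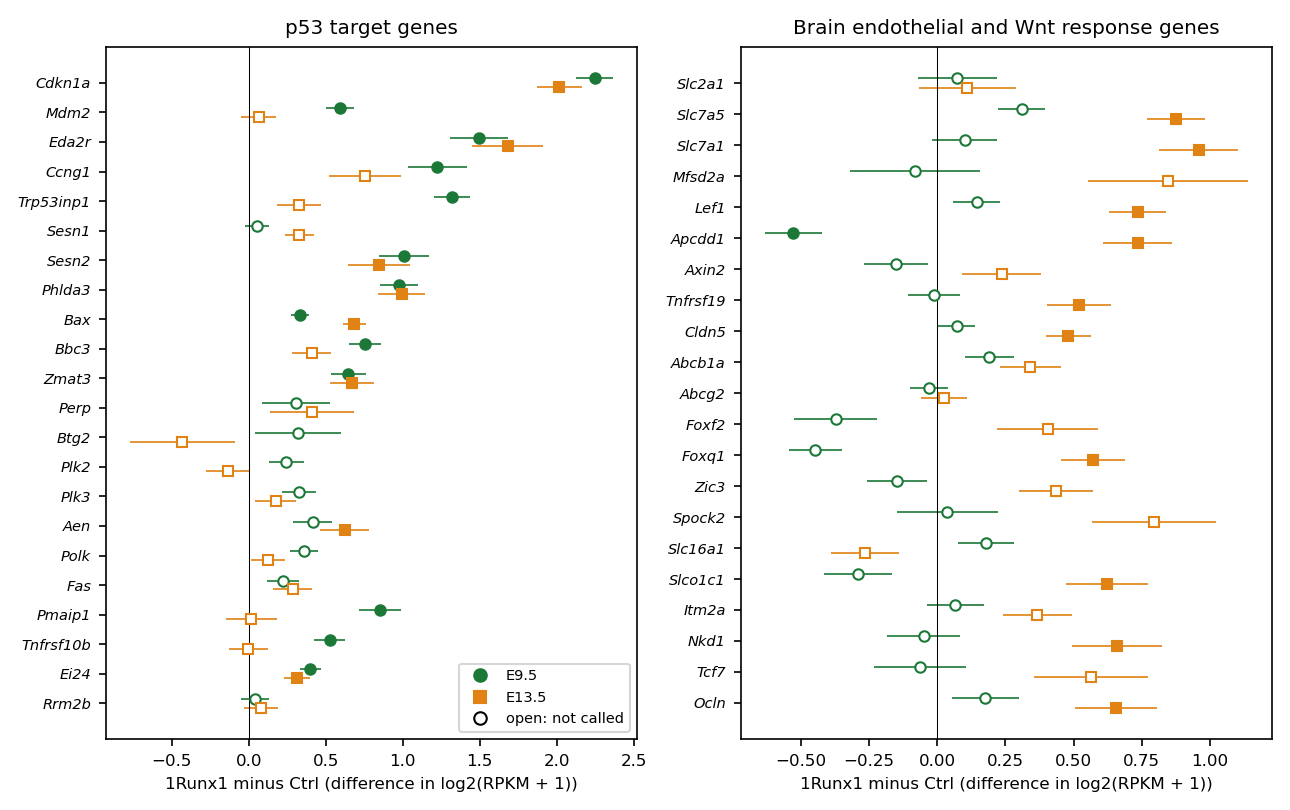
One-copy effect at E9.5 (circles) and E13.5 (squares) for the p53 target genes and for the brain endothelial and Wnt response genes, in log2(RPKM + 1), with standard errors and open symbols where the effect was not called. Of the p53 targets 13 were called at E9.5 and 8 at E13.5, whereas of the brain list 10 were called higher at E13.5 and 1, Apcdd1, lower at E9.5.

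A few genes rose at both stages but more at E9.5. Lgals9, the sugar-binding protein galectin-9 (chromosome 11, 78962979 to 78984924), was at 1.91 and 1.87 RPKM in E9.5 Ctrl and 11.7 and 11.2 in 1Runx1, and at 54.4 in E13.5 Ctrl and 134 and 154 in 1Runx1. Its level was thus far higher at E13.5 in every library, but its effect was 1.38 ± 0.08 there against 2.11 ± 0.06 at E9.5, a difference of -0.73 (interval -0.94 to -0.51, adjusted p 0.00678). Alox5, the lipoxygenase that starts leukotriene synthesis (chromosome 6, 116410071 to 116461178), was at 0.536 and 0.411 against 4.38 and 4.81 at E9.5 and at 0.217 against 1.02 and 1.56 at E13.5. Its effects of 1.93 ± 0.12 and 0.90 ± 0.14 differed by -1.02 (adjusted p 0.0265), a call lost in 7 of 12 alternatives. Itgb3, integrin β3 (chromosome 11, 104608000 to 104670476), was at 1.19 and 0.938 against 7.69 and 7.71 at E9.5 and at 0.862 against 3.77 and 3.38 at E13.5. Its difference of -0.78 had an adjusted p of 0.0467 and lost the call in all 12 alternatives (adjusted p 0.0508 to 0.192).

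In 3 genes both effects were called and pointed in opposite directions. Bcam, a laminin-binding adhesion molecule (chromosome 7, 19756138 to 19770532), was at 5.07 and 5.17 RPKM in E9.5 Ctrl and 3.51 and 3.65 in 1Runx1, and at 14.7 in E13.5 Ctrl and 26.3 and 24.3 in 1Runx1. It fell by 0.42 ± 0.06 at E9.5 and rose by 0.75 ± 0.08 at E13.5 (difference 1.17, adjusted p 0.000673). Apcdd1, a membrane inhibitor of Wnt signalling, was at 18.6 and 19.2 against 13.7 and 12 at E9.5 and at 37.3 against 69.6 and 56.7 at E13.5. The difference was 1.26 (interval 0.90 to 1.63, adjusted p 0.006). Rps3a1, a ribosomal protein gene with many pseudogenes, between which reads may be split, went the other way, with effects of 0.71 ± 0.06 and -0.41 ± 0.08. These 3 calls of a difference held in all 12 alternatives.

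Responses not shared were mostly seen at E13.5. Of the 146 genes with a positive difference, 128 were called at E13.5 alone, 7 at E9.5 alone, 3 at both and 8 at neither. For the 138 with a negative difference these numbers were 114, 16, 4 and 4. Of the 138 genes with a negative difference, 34 were below an RPKM of 1 in all 4 E9.5 libraries and so had little RNA to change there. That share was above the 1404 of all 12546 genes. For the positive differences it was 19 of the 146, near the share of all genes.

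The largest positive differences were in Rps18-ps4 and Eno1b. Rps18-ps4, a pseudogene of a ribosomal protein gene (chromosome 13, 97751112 to 97760963), was at 14.7 RPKM in E9.5 Ctrl replicate 2, a little lower in replicate 1, at 21.4 and 18.4 in E9.5 1Runx1, at 0.229 in E13.5 Ctrl and at 24.4 in each E13.5 1Runx1 library. Eno1b, a near-copy of the enolase gene Eno1, was at 86.6 and 86.3 in E9.5 Ctrl, 73.8 and 75.8 in E9.5 1Runx1, 2.3 in E13.5 Ctrl and 40.3 and 41.9 in E13.5 1Runx1. Both were lowest in E13.5 Ctrl by far, while E13.5 1Runx1 stood above the E9.5 libraries for Rps18-ps4 and below them for Eno1b. The differences of effects were 3.90 ± 0.18 and 3.88 ± 0.11, with adjusted p of 4.79e-06 and 7.54e-08. Both genes have near-identical copies, so the split of reads between copies is uncertain.

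In 4 other genes the E13.5 Ctrl library was also the lowest. H2-K1, a classical MHC class I heavy chain (chromosome 17, 33996012 to 34000619), was at 6.41 and 7.31 RPKM in E9.5 Ctrl, 10.7 and 8.68 in E9.5 1Runx1, 4.46 in E13.5 Ctrl, and 25.5 and 24.3 in E13.5 1Runx1. Paip1, a partner of the poly(A)-binding protein (chromosome 13, 119428331 to 119460323), was at 9.38 and 8.78, then 10.1 and 9.21, then 3.61, then 15.4 and 15.9 in the same order. Gt(ROSA)26Sor, the noncoding gene of the Rosa26 locus (chromosome 6, 113067428 to 113077244), was at 4.53 and 3.98, then 4.94 and 6.01, then 0.763, then 6.43 and 6.87. H2-Q1, a second MHC class I gene whose reads can be shared with its relatives, was at 0.433 and 0.336, then 0.629 and 0.496, then 0.0902, then 1.94 and 1.75. In all 4 the E13.5 Ctrl library was the lowest of the 7 and the E13.5 1Runx1 libraries were the highest. Their differences of effects were 1.81 ± 0.13, 1.77 ± 0.16, 1.82 ± 0.17 and 1.21 ± 0.14, and they were called in all 12 alternatives.

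The E13.5 2Runx1 libraries, which also carry Cre, stood beside Ctrl and not beside 1Runx1 for these genes. Rps18-ps4 was at 0.34 and 0.222 RPKM in 2Runx1, Eno1b at 2.58 and 2.85, and H2-K1 at 5.93 and 6.14. Paip1 was at 3.39 and 3.09 there, Gt(ROSA)26Sor at 1.06 and 1.44, and H2-Q1 at 0.0105 and 0.035. By the labels, E13.5 1Runx1 and both E9.5 groups carried CKI/+, 2Runx1 carried CKI/CKI, and the label of E13.5 Ctrl gives both genotypes. Added copy, allele number and library cannot be told apart for these genes. The same order held for A530016L24Rik (0.248 in E13.5 Ctrl, 4.62 and 4.24 in 1Runx1, 0.195 and 0.405 in 2Runx1) and Gm5801 (0.155, then 2.15 and 2.21, then 0.19 and 0.271). Gm4737 and E030030I06Rik had 2Runx1 values between the other groups, and E030030I06Rik was listed at 0 in E13.5 Ctrl.

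In Ttyh2, Slc38a5 and Slc40a1 the E13.5 Ctrl library was above all 4 E9.5 libraries, and E13.5 1Runx1 was higher still. Ttyh2, a chloride channel family member (chromosome 11, 114675468 to 114720984), was at 4.56 and 4.26 against 4.42 and 3.11 RPKM at E9.5 and at 12.4 against 55 and 50 at E13.5, with 14.8 and 25.1 in 2Runx1. Its difference of 2.20 ± 0.31 (adjusted p 0.0103) was called in all 12 alternatives. Slc38a5, a glutamine transporter (chromosome X, 8271381 to 8280179), was below 0.5 in every E9.5 library, at 48.6 in E13.5 Ctrl and at 121 and 114 in 1Runx1. Its difference of 1.47 (adjusted p 0.0347) lost the call in 8 of 12. Slc40a1, the iron exporter ferroportin, had values of 8.02 and 8.05 against 5.18 and 3.6 at E9.5 and of 45.7 against 82 and 64.2 at E13.5. Neither of its effects passed on its own (adjusted p 0.0559 and 0.0586), but their difference of 1.42 did (adjusted p 0.0253), and it lost the call in 6 of 12.

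**Figure D4:**
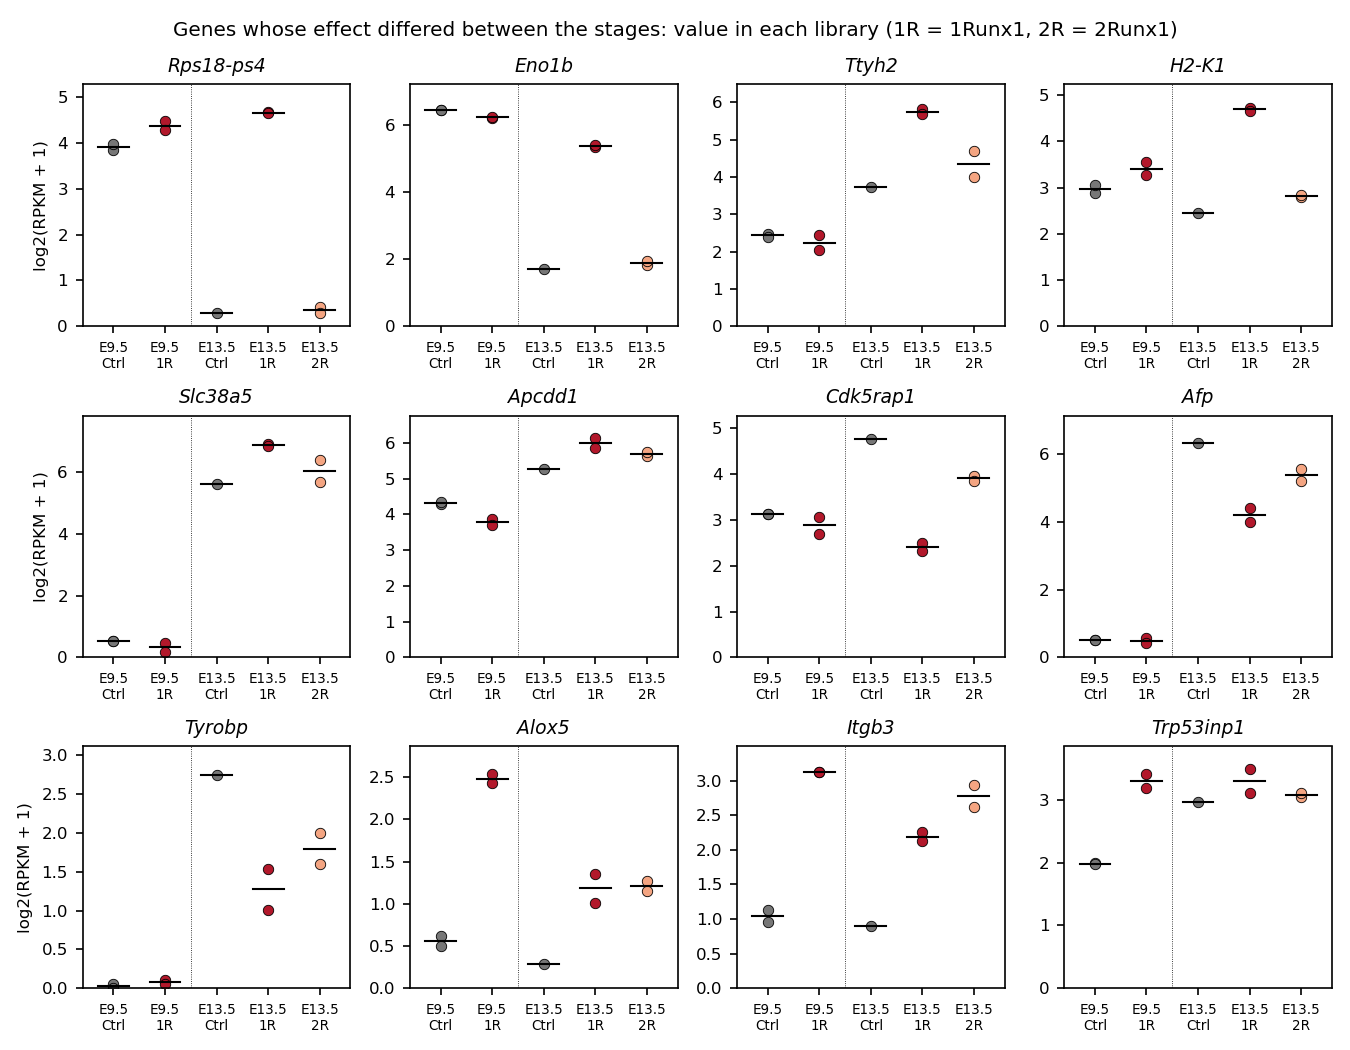
Values of 12 genes whose effect differed between the stages, one point per library, in log2(RPKM + 1), with short lines at group means. Rps18-ps4 and Eno1b were low in E13.5 Ctrl and 2Runx1 alone, Slc38a5, Afp and Tyrobp were near 0 at E9.5, and Alox5 and Itgb3 rose at both stages but more at E9.5.

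Some genes of brain endothelium and its Wnt response were called higher at E13.5. In brain vessels, Wnt ligands from neural tissue act through β-catenin to induce barrier properties and transporters. Of 21 genes tested, 10 were higher at E13.5 and none lower, against 6.34% and 4.03% of all genes tested. At E9.5 none was higher and 1, Apcdd1, was lower, against 0.861% and 0.327% of all genes. The median effect over the list was -0.01 at E9.5 and 0.56 at E13.5, against 0.01 and 0.02 over all genes tested. The difference itself was called in 4: Apcdd1, Foxq1, Slco1c1 and Slc7a1. The list had been chosen with results of these libraries known. Over the alternatives the number with a called difference ran from 1 to 6 and the number higher at E13.5 from 6 to 14.

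Foxq1, a forkhead factor of brain endothelium, was at 4 and 4.04 RPKM in E9.5 Ctrl and 2.95 and 2.43 in 1Runx1, and at 8.21 in E13.5 Ctrl and 13.7 and 11.7 in 1Runx1. The difference was 1.02 (interval 0.68 to 1.36, adjusted p 0.0129). Slc7a1, a cationic amino acid transporter, was at 6.48 and 5.96 against 6.48 and 6.99 at E9.5 and at 17.2 against 37.5 and 31.6 at E13.5. Slco1c1, a thyroid hormone transporter of the blood-brain barrier, was below 0.5 RPKM in all E9.5 libraries and at 6.33 against 11.8 and 8.96 at E13.5. The calls of Slc7a1 and Slco1c1 were lost in 9 and 10 of 12 alternatives. Lef1, a transcription factor of the Wnt pathway, and the tight junction gene Cldn5 rose at E13.5 by 0.74 and 0.48 but missed the threshold for a difference, with adjusted p of 0.0548 and 0.0784. The samples are whole fetuses, so more brain endothelial cells among those sorted and more RNA per cell cannot be told apart. This holds for every level in these bulk libraries.

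Interferon-stimulated genes are switched on downstream of interferon receptors and encode many antiviral proteins. Of 27 tested, 12 were higher at E13.5 and none lower, against 6.34% and 4.03% of all genes tested. At E9.5 none was higher and 1, Gbp4, was lower, against 0.861% and 0.327% of all genes. Medians were -0.02 at E9.5 and 0.50 at E13.5, against 0.01 and 0.02 over all genes tested. The difference was called in 6: Rtp4, Xaf1, Gbp3, Gbp7, Irf9 and Ifi35. Rtp4, a chaperone of receptor trafficking, was at 0.311 and 0.565 RPKM against 0.497 and 0.388 at E9.5 and at 6.36 against 14.7 and 11.8 at E13.5, with a difference of 0.94 (adjusted p 0.0254). Gbp3, a guanylate-binding protein, was at 0.392 and 0.365 against 0.25 and 0.421 at E9.5 and at 1.96 against 4.2 and 4.11 at E13.5. Most members were near 0 at E9.5, and the number with a called difference ran from 0, with limma-voom on recovered reads, to 12 over the alternatives. In the MHC class I list, 5 of 16 genes were higher at E13.5 and 1 at E9.5. Apart from H2-K1 and H2-Q1, described above, no difference was called in it.

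Genes of liver and blood cells were among those with a negative difference. Of 17 hepatocyte genes tested, 14 were lower and 1 higher at E13.5, against 4.03% and 6.34% of all genes tested. The difference was negative in 10, against 1.1% of all genes. Afp, the fetal serum protein α-fetoprotein (chromosome 5, 90490714 to 90508907), was at 0.422, 0.415, 0.479 and 0.337 RPKM at E9.5, at 78.3 in E13.5 Ctrl and at 14.9 and 20 in E13.5 1Runx1, a difference of -2.11 ± 0.22 (adjusted p 0.00209). Alb, serum albumin, was at 28.1 in E13.5 Ctrl and at 5.53 and 9.8 in 1Runx1 and near 0 at E9.5. Rbp4, Ambp, Serpina6 and Itih2, which also encode plasma proteins made by the liver, had differences of -1.81, -1.88, -1.76 and -1.54. The summed RPKM of the 19 hepatocyte markers was 20.5 to 36.1 at E9.5, with 17 of 19 below 1 in all 4 libraries, 328 in E13.5 Ctrl, 223 and 246 in 1Runx1, and 227 and 320 in 2Runx1. Trf, transferrin, made up most of the E9.5 sum, at 17.6 and 18.5 RPKM in Ctrl and 30.7 and 34 in 1Runx1. At E9.5 the other members thus had hardly any RNA that could fall, and limma-voom on recovered reads called none of the differences in that list, although it called that of Itih2, which is not in it. Trf went against the others of the list, since it rose at both stages, by 0.81 ± 0.07 and 0.61 ± 0.08.

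Macrophage genes were called at both stages, in different members. At E9.5, 3 of 16 were higher (Fcgr3, Fcer1g and Lyz2), and at E13.5, 7 were lower (Csf1r, Cd68, C1qa, C1qb, C1qc, Tyrobp and Ctss). The same shares of all genes tested were 0.861% and 4.03%. Tyrobp, the adaptor DAP12, was at 0.0428, 0, 0.0759 and 0.041 RPKM in the E9.5 libraries, at 5.71 in E13.5 Ctrl and at 1.01 and 1.91 in 1Runx1 (difference -1.52, adjusted p 0.0233). C1qb, a chain of complement C1q, was at 5.8 against 1.6 and 1.68 at E13.5, with a difference of -1.39 ± 0.11. Fcgr3, a low-affinity receptor for IgG, was at 1.1 and 1.25 against 4.68 and 4.25 at E9.5 and at 1.82 against 2.54 and 2.89 at E13.5, and its effects of 1.33 ± 0.11 and 0.39 ± 0.14 differed by -0.94 (adjusted p 0.0298). The 19 markers summed to 14.2 to 19.2 RPKM at E9.5, 82.1 in E13.5 Ctrl, 60.4 and 62.8 in 1Runx1, and 60.8 and 86.6 in 2Runx1, with 15 of the 19 below 1 in all E9.5 libraries. The difference was negative in 6 of the 16, and limma-voom called none of them.

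Of 6 neutrophil and mast cell genes tested, 3 were lower at E13.5, as were 3 of 10 megakaryocyte and platelet genes. Over all genes tested 4.03% were lower at E13.5. S100a9, a calcium-binding protein of neutrophils, was listed at 0 in all E9.5 libraries, at 9.5 RPKM in E13.5 Ctrl and at 2.04 and 0.786 in 1Runx1. Ppbp, a platelet chemokine, was at 4.64 against 0.971 and 0.19 at E13.5 and below 0.1 at E9.5. Of 12 erythroid genes tested, 7 were lower at E13.5 and none was called at E9.5, and the difference was called in Hemgn and Slc25a37. Limma-voom called no difference in these 3 lists. Neutrophil markers summed to 37.9 RPKM in E13.5 Ctrl and 16.6 and 13 in 1Runx1, and to 1.58 to 2.03 at E9.5, with 1 of 14 at 0 in all libraries. Erythroid markers summed to 1292 RPKM in E13.5 Ctrl, 516 and 619 in 1Runx1 and 1350 and 660 in 2Runx1, so one 2Runx1 library was above Ctrl and the other near 1Runx1, and 3 of 16 were at 0 in all libraries. The part of these other cells' RNA in the negative differences was not tested.

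Cdk5rap1, Zfp808 and Mt2 also had large negative differences and belonged to none of the lists. Cdk5rap1, a mitochondrial tRNA-modifying enzyme (chromosome 2, 154222011 to 154373038), was at 7.77 and 7.76 against 5.5 and 7.4 RPKM at E9.5 and at 26.2 against 4.68 and 3.98 at E13.5, with 14.6 in 2Runx1 replicate 1 and a little less in replicate 2. The difference was -2.11 ± 0.19 (adjusted p 0.000673), and it was called in all 12 alternatives. Zfp808, a zinc finger gene, was at 6.48 in E13.5 Ctrl and at 1.45 and 1.85 in 1Runx1, while its E9.5 libraries lay between 3.37 and 4.22. Mt2, a metallothionein, was at 29 against 9.63 and 8.82 at E13.5 and between 2.45 and 3.83 at E9.5.

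Endothelial identity genes had small effects. Of the 26, 1 was higher and 2 lower at E9.5, and 7 were higher and 2 lower at E13.5. Over all genes tested these shares were 0.861% and 0.327% at E9.5 and 6.34% and 4.03% at E13.5. Sox7, an endothelial transcription factor, was common higher, by 0.23 ± 0.04 and 0.28 ± 0.05, and Clec14a and Tek were common lower. Sox7 and Tek lost a call in 7 of 12 alternatives and Clec14a in 6. Egfl7, a secreted protein of endothelium, was the member with a called difference, at 376 and 381 against 347 and 351 RPKM at E9.5 and at 402 against 470 and 483 at E13.5 (difference 0.36, adjusted p 0.0281, lost in 7 of 12 alternatives). The arterial gap junction gene Gja4 had a difference of 0.69 (adjusted p 0.0185), with values of 74.7 and 77.9 against 61.8 and 65.2, and of 34.3 against 43.5 and 50.1. In the NF-κB and leukocyte adhesion list, the inhibitors Nfkbia and Nfkbie were common higher, by 0.51 ± 0.06 and 0.72 ± 0.09 at E9.5 and 0.42 ± 0.07 and 0.78 ± 0.11 at E13.5. Tlr2, a receptor for bacterial lipoproteins, fell by 0.47 ± 0.08 at E9.5 and had an uncalled effect of 0.30 at E13.5 (difference 0.77, adjusted p 0.0234).

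No stage difference was called among the 16 hemogenic and blood transcription factors, the 9 hemogenic endothelium and stem cell surface genes or the 24 TGFβ target genes tested. Over all genes tested 1.16% had a called positive and 1.1% a called negative difference, so no calls in lists this small is not a result about them. At an unadjusted p under 0.05 from limma each of these lists held 4 differences, against 2499 of all 12546 genes tested, and limma-voom called 0, 0 and 2. Of the 9 surface genes 5 were higher at E13.5 (Kit, Adgrg1, Cd44, Procr and Esam) and none at E9.5. The shares of all genes tested were 6.34% and 0.861%. Gata2, a transcription factor of hemogenic endothelium, was at 21 and 22.4 against 28.1 and 28.5 RPKM at E9.5 and at 13.2 against 20 and 22.5 at E13.5. Its effect passed at E13.5 alone, at 0.65 against 0.37, and the interval of the difference ran from -0.03 to 0.59. Kit, the stem cell factor receptor used in the sort, was at 30.9 and 31.1 against 26.7 and 25.3 at E9.5 and at 25.6 against 39.4 and 39.2 at E13.5, a difference of 0.84 that missed the threshold (adjusted p 0.0675). Smad7, an inhibitor of TGFβ signalling, was at 10.2 and 9.69 against 10.4 and 10.2 at E9.5 and at 12.1 against 7.02 and 5.36 at E13.5 (difference -0.91, adjusted p 0.0725).

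In the hypoxia list, Egln3, an oxygen-sensing hydroxylase, rose by 0.62 ± 0.07 at E9.5 and had an effect of 0.04 at E13.5. Vegfa and the lactate exporter Slc16a3 also had negative differences, of -0.61 and -0.99. The call of a difference was lost in 8 of 12 alternatives for Egln3 and in 6 for Vegfa and Slc16a3. Mki67, a marker of dividing cells, was at 23.6 and 23 against 24.2 and 25.4 RPKM at E9.5 and at 26.5 against 16.6 and 17 at E13.5, a difference of -0.71 ± 0.10 (adjusted p 0.00876) in a list of 22 mitosis genes in which the difference was called for Mki67 and Cenpe. In E13.5 2Runx1, Mki67 was at 23 and 24.8. At E13.5, 4 of the 22 were lower (Mki67, Cenpe, Cenpf and Kif11) and none higher, against 4.03% and 6.34% of all genes tested. Limma-voom called 3 differences in the list. The median of that list was 0.06 at E13.5, and 0.05 for the difference, so its typical member did not fall with these genes. The small heat shock gene Hspb1 had a difference of 1.37 and the chaperone gene Hsp90aa1 one of -0.74, calls lost in 4 and 7 of 12 alternatives. The 19 immediate early genes had a median of 0.30 at E9.5 and -0.11 at E13.5. They held 8 differences at an unadjusted p under 0.05 from limma, against 2499 of all 12546 genes tested. None was called by limma or limma-voom.

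**Figure D5:**
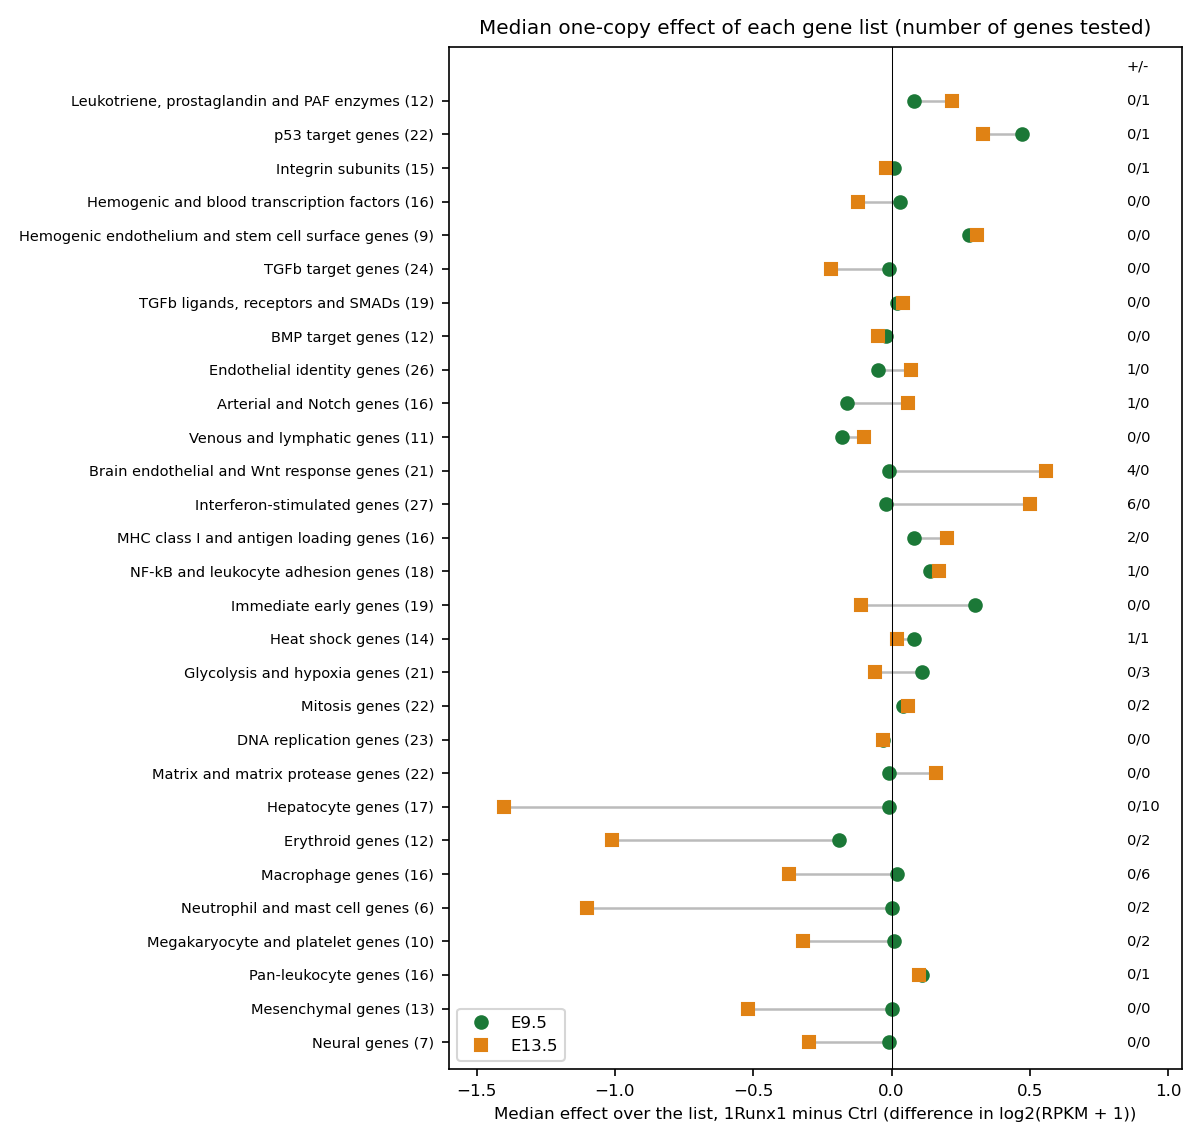
Median one-copy effect over each gene list at E9.5 (circles) and E13.5 (squares), in log2(RPKM + 1), with the number of genes tested in brackets and, at the right, the number of genes with a positive and a negative called difference. The p53 targets have a positive median at both stages, the brain endothelial and interferon lists at E13.5 alone, and the hepatocyte, erythroid and neutrophil lists have the lowest medians at E13.5.

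Open chromatin was compared at the same stages from the authors' ATAC-seq peak lists, 1 list per group, which have no replicate check. A peak of 1Runx1 was counted as gained where it overlapped no Ctrl peak of its stage by 1 base. At E9.5, 14896 of 96532 peaks (15.4%) were gained, and at E13.5, 15234 of 100268 (15.2%). Ctrl peaks that overlapped no 1Runx1 peak, counted as lost, were 17336 of 99298 (17.5%) at E9.5 and 12320 of 96537 (12.8%) at E13.5. Of the gained peaks, 2294 of the E9.5 set (15.4%) overlapped a peak gained at E13.5, and 2306 of the E13.5 set (15.1%) one gained at E9.5. Gained peaks were weak, with a median −log10 q of 5.37 at E9.5 against 18.7 over the whole 1Runx1 list, and 4.48 against 16.9 at E13.5.

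The share of common higher genes with a gained peak did not stand apart from that of all genes beyond its counting interval. Within the gene or 50 kb of it, 39 of the 52 common higher genes (75%, 95% Wilson interval 61.8 to 84.8) had a gained peak at each stage, against 64.9% of all genes tested at E9.5 and 66.4% at E13.5. For peaks gained at both stages at the same place, the shares were 11 of 52 (21.2%) and 17.6%. Genes with a positive difference stood at 65.8% at E9.5 and 66.4% at E13.5, and those with a negative difference at 51.8% (43.5 to 60) and 58.4% (50 to 66.3), below the share of all genes. The negative class was also lower for lost peaks, at 49.6% and 46.7% against 70.2% and 60.5% of all genes, and the common higher genes stood at 69.2% at each stage. No test was made of these shares, which rest on 1 list a group, and within 10 kb the common higher genes stood at 36.5% and 34.6%, against 36.5% and 37.8% of all genes. A longer gene has a wider window, and the shares were not adjusted for length. The median gene length was 14.2 kb for common higher genes and 21.9 kb for all genes tested. For the positive and negative differences it was 12.5 kb and 28.6 kb.

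Alox5 had a gained peak inside the gene at both stages, 5.2 kb downstream of the start site, at chr6:116455798-116456243 in the E9.5 list and chr6:116455878-116456134 in the E13.5 list, with −log10 q of 82.3 and 18.2. Stat4 had one 3.3 kb from a start site at E9.5, at chr1:52011381-52011532, and one 3.2 kb from it at E13.5, at chr1:52011370-52011522, both inside the gene. Peaks gained at both stages also lay near genes that did not rise at both. Bcam, lower at E9.5, had one 33.5 kb from a start site, with −log10 q of 65.8 and 30.5. Itih2, lower at E13.5, had one 36.2 kb from a start site, with 51.5 and 16.2. The AI467606 window shown above lay under a peak in all 4 lists. Its −log10 q was 6.4 in E9.5 Ctrl, 134.4 in E9.5 1Runx1, 28.4 in E13.5 Ctrl and 107.0 in E13.5 1Runx1. The Ltc4s window lay under a peak in all but E13.5 Ctrl, with 6.1 in E9.5 Ctrl, 33.2 in E9.5 1Runx1 and 19.2 in E13.5 1Runx1. The Lgals9 window lay under a peak in all but E9.5 Ctrl, with 5.4 in E9.5 1Runx1, 28.8 in E13.5 Ctrl and 35.0 in E13.5 1Runx1. Cdkn1a had 4 gained peaks within 50 kb of a start site at E9.5 and none at E13.5, and 2 and 4 lost peaks, while its RNA rose by 2.25 and 2.02.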

How the data were processed

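RNA was measured in 13 libraries, of which 7 form the comparison. The authors deposited 1 table of RPKM. The submitters' processing notes name STAR 2.7.3a, featureCounts, Subread 2.0.0, edgeR, Bowtie2 2.3.5.1 and MACS2 2.1.4, without their order, and the builds mm10 and GRCm38. The Nextera XT kit does not mark strand, so overlapping genes cannot be told apart. Whole reads were recovered from the RPKM for 100% of 20720 genes above 0 (tolerance 0.0001 reads). The authors' peak lists give a fold enrichment (a ratio) and −log10 q for each peak, from replicates combined per group.

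Limma 3.58.1 in R 4.3.3 was fitted to log2(RPKM + 1) of 13 libraries in 7 groups with an intensity trend (6 residual degrees of freedom, 10.3 in all) and tested on simulated data. Tests were two-sided, with Benjamini-Hochberg adjustment, called under 0.05. Members, lists and tests were chosen with earlier results of these data known. The text names the 12 higher and 8 lower common genes with the largest smaller effect, the 12 largest called differences each way, and at most 4 called genes a list, leaving out microRNA and small nucleolar RNA genes. A further few were named after their values were seen: genes called at both stages with a called difference, and uncalled or singly called members such as Mdm2, Lef1, Gata2, Kit and Smad7. RefSeq start sites matched 9926 of the 12546 genes (GRCm38.p6), too few for a comparison of classes, so whole genes were used for counts of peaks, a choice made after seeing the data.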

Additional observations from a re-analysis of the deposited data

Results flagged for a closer look

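The difference of the one-copy effects was called for each gene below in the limma fit of 13 libraries. Each value is that difference in log2(RPKM + 1), E13.5 less E9.5. Stage cannot be told apart from background and superovulation, and each E13.5 effect rests on 1 Ctrl library. Many of the calls were lost under some alternatives, and that of Itgb3 under all 12. Among the largest positive ones were Rps18-ps4 (3.90), Eno1b (3.88), Ttyh2 (2.20), Gm4737 (2.09), E030030I06Rik (1.88), Gt(ROSA)26Sor (1.82), H2-K1 (1.81), Paip1 (1.77), A530016L24Rik (1.71), Gm5801 (1.65), Slc38a5 (1.47), Slc40a1 (1.42) and H2-Q1 (1.21). Brain endothelial and Wnt response genes were Apcdd1 (1.26), Foxq1 (1.02), Slco1c1 (0.92) and Slc7a1 (0.86). Interferon-stimulated genes were Rtp4 (0.94), Xaf1 (0.93), Gbp3 (0.85) and Gbp7 (0.78). Other positive ones were Hspb1 (1.37), Bcam (1.17), Tlr2 (0.77), Gja4 (0.69) and Egfl7 (0.36).

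Negative differences in liver genes were Afp (-2.11), Ambp (-1.88), Rbp4 (-1.81), Alb (-1.77), Serpina6 (-1.76) and Itih2 (-1.54). In genes of blood cells they were S100a9 (-2.17), Ppbp (-1.83), Tyrobp (-1.52), C1qb (-1.39), Camp (-1.01), Hemgn (-0.97), Fcgr3 (-0.94), C1qc (-0.78), Cd53 (-0.78) and Slc25a37 (-0.66). Cdk5rap1 (-2.11), Zfp808 (-1.74), Mt2 (-1.66) and Rps3a1 (-1.12) belonged to none of these lists. Genes that rose more at E9.5 were Alox5 (-1.02), Trp53inp1 (-0.99), Itgb3 (-0.78), Lgals9 (-0.73) and Egln3 (-0.58). Slc16a3 (-0.99), Hsp90aa1 (-0.74), Mki67 (-0.71), Cenpe (-0.67) and Vegfa (-0.61) completed the set. Over the 12 alternatives, 16 of these 56 genes were called in every one and none changed sign. Groups held 1 or 2 libraries, too few to look for a library far from the others of its group.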

How the results depend on the processing

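The 284 called differences became 147 with a pseudocount of 0.1, 114 with only the 7 libraries fitted and 76 with the replicate block, and ranged from 39 to 452 when 1 library was left out. Of the 284 genes, 25 were called under every alternative. Limma-voom on recovered reads called 278, of which 191 were among the 284. The 149 genes called at E9.5 became 43 with the 7 libraries and 87 with the replicate block, with a range of 41 to 200 on leaving out a library. The 1300 called at E13.5 became 457 with the replicate block, with a range of 821 to 1188. Common higher genes, 52 in all, were 31 without a filter on low values, 25 with the 7 libraries and 30 with the replicate block, and 23 to 62 on leaving out a library. The 11 common lower genes were 6, 1 and 1 under the same 3 settings and 0 to 12 on leaving out a library. Of the called differences 51.4% were positive, against 37.7% without the filter, 44.5% after quantile normalization, 40.4% with the 7 libraries, 40.3% with limma-voom and 36.8% with the replicate block. At E13.5, 61.2% of called genes were higher, against 50.2% without the filter, 49.3% after quantile normalization, 52.1% with limma-voom and 52.3% with the replicate block. The cause was not tested. The share of common higher genes with a gained peak, 75% at each stage, was 36.5% and 34.6% within 10 kb and 3.85% and 1.92% for peaks at or above the median −log10 q of their list. For these stronger peaks the shares of all genes tested were 4.99% at E9.5 and 3.65% at E13.5. The shares of the common higher genes there rest on 2 and 1 of the 52.

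None of the 56 differences and 29 common effects of named genes changed sign under any alternative. Replicate numbers did not pair the libraries: deviations of same-numbered libraries correlated at -0.06 at E9.5 and at -0.05 between the Runx1 groups of E13.5. The fit with the replicate block left 3 residual degrees of freedom, as did the fit of the 7 libraries. With 1 or 2 libraries a group, small differences were not detectable.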
